A study of Rattus norvegicus with 20 samples.

Results

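This comparison asked which liver transcripts differ from vehicle at the lowest of 5 doses of isodecyl diphenyl phosphate, abbreviated IDDP in the labels. The compound is an organophosphate that is added to plastics to soften them and to slow burning. The comparison used the 3 arrays whose labels give 66 mg/kg and the 5 whose labels give 0 mg/kg, 8 of the 20 arrays in the series, and it covered every probe set that was not an array control, 31042 in all. All rats were male Harlan Sprague-Dawley rats that received corn oil by gavage on 4 consecutive days and were sampled on day 5. The vehicle group received corn oil alone, and the dosed group received 66 mg/kg IDDP in it each day, or 0.169 mmol/kg. Each array read 100 ng of total RNA from the left liver lobe of 1 rat. The other groups, of 3 rats each, received 132, 263.6, 527.1 and 1054.2 mg/kg, and they enter below only where 66 mg/kg is set against them. The RNA came from bulk tissue, so a lower value can mean fewer cells of a type or less RNA per cell, which cannot be told apart here.

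The liver clears lipophilic chemicals in stages. The nuclear receptors CAR and PXR sense many of them and raise transcription of oxidising enzymes, conjugating enzymes and efflux pumps, and the transcription factor NRF2 raises glutathione-linked and reducing enzymes after oxidative or electrophilic stress. These receptors bind DNA through short half-sites related to AGGTCA, and NRF2 binds the antioxidant response element, whose core reads TGACNNNGC.

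At 66 mg/kg, 2 of 31042 probe sets (0.00644%) passed an adjusted p of 0.05, and both rose. They were Myc, a transcription factor of cell growth and division, at 3.57-fold the vehicle level, and Gsta3, an alpha-class glutathione transferase that conjugates electrophiles, at 2.48-fold. In limma 0 passed in the lower direction, where 478 were at an unadjusted p under 0.05. Cyp3a23-3a1, Ugt2b1 and Slc6a6 came next in order of p among the probe sets with 1 gene symbol, and none of them passed. The stretches of 250 bases before the RefSeq start sites (assembly GRCr8) of Gsta3 and of these 3 genes are printed because their transcripts had the smallest p-values. Myc had no entry in that table and is named only. The positions are chr9:31154739-31154988 (plus strand) for Gsta3, chr12:14398804-14399053 (minus strand) for Cyp3a23-3a1, chr14:21378632-21378881 (plus strand) for Ugt2b1 and chr4:125752252-125752501 (plus strand) for Slc6a6. Capitals mark matches to 5 motifs searched on both strands: TGACNNNGC, AGGTCA, the variant AGTTCA, which reads TGAACT on the other strand, the E-box CACGTG and the TATA box TATAAA.
Gsta3: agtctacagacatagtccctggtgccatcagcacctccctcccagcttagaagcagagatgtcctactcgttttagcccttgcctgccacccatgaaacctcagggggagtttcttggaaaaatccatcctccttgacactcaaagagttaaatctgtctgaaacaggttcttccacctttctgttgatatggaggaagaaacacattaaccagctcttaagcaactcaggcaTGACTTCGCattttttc
Cyp3a23-3a1: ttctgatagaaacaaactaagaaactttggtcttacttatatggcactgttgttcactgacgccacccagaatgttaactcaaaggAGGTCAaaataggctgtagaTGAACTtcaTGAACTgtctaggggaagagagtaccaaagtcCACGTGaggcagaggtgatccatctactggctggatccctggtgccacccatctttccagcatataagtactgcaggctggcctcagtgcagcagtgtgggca
Ugt2b1: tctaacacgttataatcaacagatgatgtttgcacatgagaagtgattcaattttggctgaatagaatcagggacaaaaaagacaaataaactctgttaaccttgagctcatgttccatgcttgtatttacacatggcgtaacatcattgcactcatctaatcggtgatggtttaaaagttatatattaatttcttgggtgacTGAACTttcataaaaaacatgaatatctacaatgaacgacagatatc
Slc6a6: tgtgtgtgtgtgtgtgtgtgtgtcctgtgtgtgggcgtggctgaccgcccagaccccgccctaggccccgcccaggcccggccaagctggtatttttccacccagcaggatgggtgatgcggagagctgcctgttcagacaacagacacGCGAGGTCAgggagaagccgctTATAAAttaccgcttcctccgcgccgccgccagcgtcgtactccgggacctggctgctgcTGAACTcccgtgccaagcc

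The Gsta3 stretch held an antioxidant response element core, TGACTTCGC, at position -17 from the start site. A core of this kind was present in 10.1% of 33469 RefSeq promoters of the same length. RefSeq lists a second start site for Gsta3, and the stretch before that one held the AGTTCA variant on each strand and no antioxidant core. The Cyp3a23-3a1 stretch held AGGTCA at -164, TGAACT at -144 and -135 and CACGTG at -103. Ugt2b1 held 1 TGAACT. Slc6a6, whose estimate at 66 mg/kg lay below vehicle, also held AGGTCA, inside an antioxidant core on the other strand (GCGAGGTCA), as well as TATAAA and TGAACT. In the same 33469 promoters AGGTCA was present in 14.1%, AGTTCA in 12.2%, CACGTG in 5.59% and TATAAA in 12.9%. The stretch before Efna1, a gene with lower estimates described below, was also searched. It held none of the motifs and is not printed. The matches describe the letters in the windows and do not show binding.

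Myc read 9.03, 9.02 and 9.12 in the 3 dosed rats, on the log2 intensity scale used throughout. In the 5 vehicle rats it read 6.78, 6.83, 7.33, 7.25 and 7.93. The groups did not overlap, and the dosed rats lay close together while the vehicle rats spanned more than 1 unit. The means were 9.06 ± 0.05 (SD, n = 3) and 7.22 ± 0.46 (SD, n = 5), a change of 1.83 ± 0.24 (SE) with an adjusted p of 0.004184 in limma, fitted across all probe sets with Benjamini-Hochberg adjustment.

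Gsta3 read 9.46, 9.22 and 9.15 in the dosed rats. It read 7.78, 7.97, 8.04, 8.13 and 7.91 in the vehicle rats. Every dosed rat lay more than 1 unit above the highest vehicle rat. The change was 1.31 ± 0.17 (SE), with a limma adjusted p of 0.004184. Without the first dosed rat (replicate 1), neither gene passed, with changes of 1.85 for Myc and 1.22 for Gsta3 and limma adjusted p-values of 0.0995 and 0.110. Gsta3 belongs to a family of similar transferases, and which relatives its probe set also binds was not tested.

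**Figure D1:**
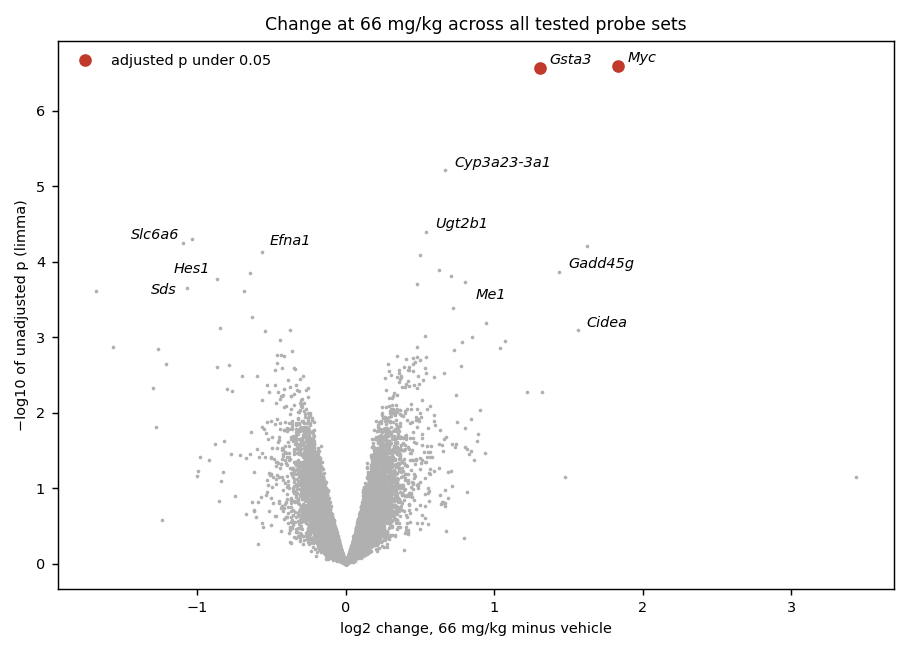
Change at 66 mg/kg against vehicle (horizontal axis, log2) and -log10 of the unadjusted limma p (vertical axis) for each of 31042 probe sets, drawn as points. The 2 red points, Myc and Gsta3, passed the adjusted threshold, and the isolated point with the largest estimate, 3.44, is the unnamed probe set 1368718_at, whose vehicle rats had an SD of 2.64.

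The number of rats sets what this comparison could resolve. The median standard error of a change was 0.116, and the 95% interval of the change lay wholly within a 1.5-fold difference in either direction for 28966 probe sets (93.3%) and within a 2-fold difference for 30760 (99.1%). These intervals are not adjusted for the number of probe sets. The estimated change was past 2-fold for 11 probe sets upward and 11 downward. At an unadjusted p of 0.05, 1005 probe sets (3.24%) differed, 527 higher (1.7%) and 478 lower (1.54%). In 1424 (4.59%) all 3 dosed rats lay outside the range of the 5 vehicle rats, above it for 832 (2.68%) and below it for 592 (1.91%). The gene groups below are read against these shares.

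Overall quality of the 8 arrays was read from their correlations and from RNA integrity. Pearson's r across probe sets lay between 0.991 and 0.996 for every pair, and no 2 arrays held identical values. RNA integrity was read as the 3' signal minus the 5' signal for the beta-actin and GAPDH controls, a difference that grows as RNA degrades. It was 0.120 higher on average in the dosed rats, and an exact two-sided permutation test over the 56 splits gave p = 0.554 (the smallest p it can give is 0.0179). The values of the 8 ran from 1.24 in vehicle replicate 1 to 2.04 in dosed replicate 2. With so few rats this test cannot show that the groups were alike. Among the hepatocyte markers, 0 of 19 were called, 1 was lower at an unadjusted p of 0.05 and the median change was -0.03, with albumin (Alb) at 15.3 in vehicle rats. Estimates were lower for 14 of the 19. For 3 of them every dosed rat lay below every vehicle rat, against 1.91% of all probe sets. The mean of the 19 relative to vehicle was -0.03, -0.11 and -0.06 in the dosed rats. It was -0.03 to 0.04 in the vehicle rats, so the groups overlapped.

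Genes under the xenobiotic-sensing receptors had mostly higher estimates. Of 22 measured targets of CAR and PXR, 10 were higher at an unadjusted p of 0.05, against 1.7% of all probe sets, 0 were lower, and 0 were called. The median change was 0.23, against -0.001 over all probe sets, and in 8 of the 22 every dosed rat was above every vehicle rat. The mean of the 22 relative to the vehicle mean was 0.29, 0.20 and 0.28 in the dosed rats and between -0.09 and 0.08 in the vehicle rats. The group was listed with earlier results of these data known, so its counts are a description.

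Cyp3a23-3a1, a cytochrome P450 that oxidises steroids and many drugs, read 14.10, 13.88 and 13.69 in the dosed rats. The vehicle rats read 13.27, 13.11, 13.04, 13.37 and 13.32. The groups did not overlap, but the lowest dosed rat was nearer to the highest vehicle rat than to the highest dosed rat. The estimate was 0.67 ± 0.11 (SE), or 1.59-fold, with a limma adjusted p of 0.0634, and it passed under 8 alternatives, including the one that left out dim probe sets (adjusted p 0.0449). When 1 rat was left out its limma adjusted p ranged from 0.0428 to 0.549, the highest without dosed replicate 2. This cytochrome has close relatives on the array: Cyp3a18 was 0.33 higher at an unadjusted p of 0.027, while Cyp3a2 was 0.04 and Cyp3a9 0.25 higher, both short of that mark.

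Ugt2b1, a glucuronosyltransferase that couples glucuronic acid to steroids and drugs, read 13.12, 13.34 and 13.07 in the dosed rats and 12.76, 12.48, 12.46, 12.62 and 12.83 in the vehicle rats. The estimate was 0.54 ± 0.10 (SE; limma adjusted p 0.276). Aldh1a1, an aldehyde and retinal dehydrogenase, read 12.89, 12.90 and 12.93 against a vehicle range of 12.30 to 12.49, a difference of 0.50 ± 0.10 (SE; limma adjusted p 0.277). For both enzymes every dosed rat lay above every vehicle rat, as a rule that chose them required.

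Ces2c, a carboxylesterase that splits ester bonds, read 9.34, 9.67 and 9.65 in the dosed rats and between 8.75 and 8.92 in the vehicle rats, a difference of 0.72 ± 0.17 (SE; limma adjusted p 0.645). In the list of carboxylesterases and paraoxonases, which also holds hepatic lipase (Lipc), 14 genes were measured. Ces2c was the 1 that was higher at an unadjusted p of 0.05, and the median of the group was 0.005. Lipc was the 1 that was lower, at -0.23 (limma adjusted p 1). Abcc3, an efflux pump of the sinusoidal membrane, read 7.39, 7.40 and 8.17 against 6.36 to 6.83, with an estimate of 1.07 ± 0.28 (SE; limma adjusted p 1). The third dosed rat was the highest for this pump, and the estimate without it was the lowest of those that left out 1 rat, at 0.81.

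Targets of NRF2 overlap with the group above. Of 31 measured, 4 were higher and 0 lower at an unadjusted p of 0.05, 0 were called, and the median was 0.14. With the 3' minus 5' difference as a covariate 8 were higher, and without dosed replicate 1 the counts were 3 higher and 1 lower. The 4 were Akr7a3, an aldo-keto reductase that reduces toxic aldehydes, Abcc3, Me1 and Blvrb, and Akr7a3 and Abcc3 are also in the CAR and PXR group. Akr7a3 read 12.52, 12.02 and 12.50 in the dosed rats and between 11.05 and 11.60 in the vehicle rats, 0.95 ± 0.23 (SE) higher with a limma adjusted p of 0.914. Me1, the malic enzyme that makes NADPH, was read by 2 probe sets, at 0.80 ± 0.18 and 0.66 ± 0.20 (SE; limma adjusted p 0.378 and 1). Members that define the oxidative stress response were close to vehicle: Hmox1, heme oxygenase, was at 0.01, Txnrd1, thioredoxin reductase, at -0.04 and Gclc, of glutathione synthesis, at 0.11. Nqo1, a quinone reductase, was 0.38 higher (95% interval -0.01 to 0.76).

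Among 20 measured glutathione transferases, Gsta3 was the 1 that was called. Mgst2, a microsomal member, was 0.25 higher at an unadjusted p of 0.034 and was not called, and the group median was 0.08. The number higher was 1 without vehicle replicate 2, dosed replicate 1 or dosed replicate 3, and 4 with array weights or with the 3' minus 5' difference as a covariate. Estimates were 0.14 for Gsta1, 0.21 for Gstm1 and 0.02 for Mgst1, none past that mark. Gstp1 had an estimate of -0.24.

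**Figure D2:**
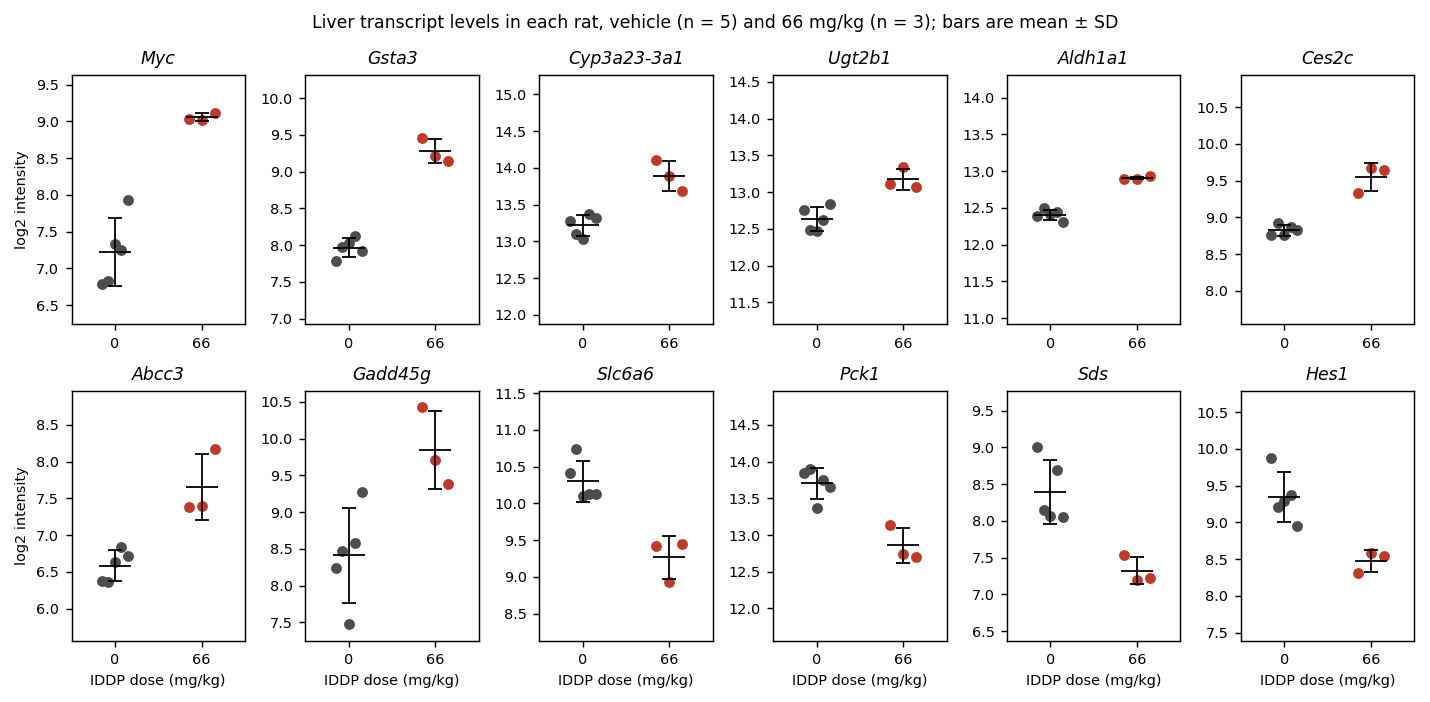
Log2 intensity of 12 transcripts in each rat, with 5 vehicle rats in grey and 3 rats at 66 mg/kg in red, each panel on its own axis, and bars for mean ± SD. In each of the 12 panels the dosed and vehicle rats do not overlap, with the narrowest gap for Gadd45g, and of the 12 only Myc and Gsta3 passed the adjusted threshold. A rule that chose every gene shown but Abcc3 required separate groups, which 4.59% of all probe sets had.

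Slc6a6, the transporter that takes taurine into cells, had the smallest p of the lower probe sets with 1 symbol. It read 9.42, 8.93 and 9.45 in the dosed rats. It read 10.41, 10.73, 10.10, 10.13 and 10.13 in the vehicle rats. All dosed rats lay below all vehicle rats, and the difference was -1.03 ± 0.20 (SE), 2.05-fold lower, with a limma adjusted p of 0.276. Its second probe set gave -1.09 ± 0.21 (SE; limma adjusted p 0.276), so both readings of the gene had the same sign and a like size.

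Genes of amino acid and glucose metabolism had some of the lower estimates. Pck1, the enzyme that commits carbon to gluconeogenesis, read 13.14, 12.74 and 12.70 in the dosed rats and between 13.37 and 13.90 in the vehicle rats, a difference of -0.84 ± 0.21 (SE; limma adjusted p 0.996). Sds, serine dehydratase, which feeds serine carbon into pyruvate, read 7.54, 7.20 and 7.23 against 8.05 to 9.01, a difference of -1.07 ± 0.24 (SE; limma adjusted p 0.401). The dosed rats were separate from the vehicle rats for both. Of 18 measured genes of gluconeogenesis and glucose handling, 0 were higher and 3 lower at an unadjusted p of 0.05, the third being Igfbp1, an insulin-repressed secreted protein, at -0.92, with overlapping groups. The median was -0.07, and the mean of the 18 relative to vehicle was -0.16, -0.25 and -0.19 in the dosed rats and -0.06 to 0.06 in the vehicle rats. Other members were near 0: Fbp1, of the same pathway, was at -0.05, and Ppargc1a, its coactivator, at 0.02.

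Several regulators were lower without passing. Nr0b2, the corepressor SHP that damps bile acid synthesis, read 8.06, 8.12 and 7.64 against 8.54 to 9.68, a difference of -1.21 ± 0.34 (SE; limma adjusted p 1). Cyp7a1, the rate-limiting enzyme of bile acid synthesis, was 0.41 higher at an unadjusted p of 0.23. Of the 22 measured genes of bile acid synthesis and transport, 1 was higher and 1 lower at an unadjusted p of 0.05 (Slco1a4 and Nr0b2), with a median of -0.05. Hes1, a transcriptional repressor downstream of Notch, read 8.30, 8.58 and 8.54 against 8.96 to 9.88, a difference of -0.86 ± 0.19 (SE; limma adjusted p 0.370). Depp1, a target of FOXO factors, was at -0.69 ± 0.15 (SE; limma adjusted p 0.401) and Sik1, a kinase of fasting and cAMP signalling, at -0.37 ± 0.09 (SE; limma adjusted p 0.996), with -0.11 by a second probe set of Sik1. Efna1, a membrane ligand of Eph receptors, was at -0.56 by one probe set and -0.70 by the other, while Epha4, a receptor of that family, was 0.48 higher by the probe set that chose it and between -0.16 and 0.27 by its other 3. Popdc2, a membrane protein that binds cAMP, was at -0.65 by one probe set and -0.25 by the other, and Chka, the first enzyme of phosphatidylcholine synthesis from choline, at -0.63.

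The growth-arrest gene Gadd45g had the largest upward estimate after Myc and Cidea among the named genes. It read 10.43, 9.72 and 9.39 in the dosed rats and 8.24, 8.48, 7.47, 8.58 and 9.28 in the vehicle rats. The dosed rats lay above the vehicle rats, but the lowest dosed rat exceeded the highest vehicle rat by little. The difference was 1.43 ± 0.30 (SE; limma adjusted p 0.369). Its relative Gadd45a, a DNA-damage-inducible gene, was 0.85 ± 0.22 higher (SE; limma adjusted p 1), and Gadd45b was at -0.05. Of 31 measured immediate early genes, the list that holds these and Myc, 3 were higher and 1 lower at an unadjusted p of 0.05, and the median was -0.05. The classical members Fos (0.03), Egr1 (0.04) and Jun (0.17) were close to vehicle, and p21 (Cdkn1a), the p53-induced cell cycle inhibitor, was at 0.06 with a 95% interval of -0.44 to 0.55 by one probe set and at -0.25 by the other.

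Most cell cycle genes had estimates above vehicle. Of 39 measured, 7 were higher and 0 lower at an unadjusted p of 0.05, 0 were called, 36 had estimates above 0 and the median was 0.24, or 0.12 over all probe sets of these genes rather than the brightest of each. The 7 were Cdkn3, Tk1, Aurka, Ccnb2, Birc5, Mki67 and Aurkb. Cdkn3, a phosphatase of cyclin-dependent kinases, read 8.55, 7.91 and 8.41 against 6.59, 6.77, 6.70, 7.17 and 8.11, and Tk1, thymidine kinase, was 0.36 ± 0.13 higher (SE; limma adjusted p 1), with 0.50 and 0.11 by its other probe sets. Licensing and replication factors were nearer to 0, with Mcm2 at 0.03, Mcm7 at 0.02 and Pcna within 0.01 of vehicle. The group mean relative to vehicle was 0.29, 0.18 and 0.39 in the dosed rats and reached 0.22 in vehicle replicate 5, so the groups overlapped. The number higher was 2 without dosed replicate 3, 20 when the fit held only the 8 arrays and 14 with array weights. The same vehicle rat, replicate 5, was also the highest vehicle rat for Myc (7.93), Gadd45g (9.28) and Cidea (9.51).

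Lipid genes gave single large estimates with broad spread. Cidea, a lipid droplet protein, read 9.47, 9.96 and 9.59 in the dosed rats and 8.27, 7.82, 7.35, 7.61 and 9.51 in the vehicle rats, a difference of 1.56 ± 0.40 (SE; limma adjusted p 0.996). The groups overlapped through the 1 high vehicle rat. Of 50 measured targets of PPARalpha, the receptor that drives fatty acid oxidation, 3 were higher and 2 lower at an unadjusted p of 0.05, with a median of -0.02, and Cyp4a1 (0.06), Ehhadh (0.13) and Acot1 (-0.05), genes often used to read that receptor, were near vehicle. The number of these targets that were higher was 1 without vehicle replicate 2, vehicle replicate 3, dosed replicate 1 or dosed replicate 3, and the number lower was 4 without vehicle replicate 5. Scd, the desaturase that makes oleate, read 10.87, 9.41 and 9.74 against 10.24 to 12.15, with an estimate of -1.28 and a 95% interval of -2.28 to -0.27. In fatty acid synthesis, 3 of 24 genes were higher (Me1, Elovl6 and Acaca) and 1 lower (Scd) at an unadjusted p of 0.05, and 1 was higher without dosed replicate 1. In cholesterol synthesis and uptake 0 of 21 were higher and 1 lower, Insig1, a brake on that pathway, at -0.65.

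**Figure D3:**
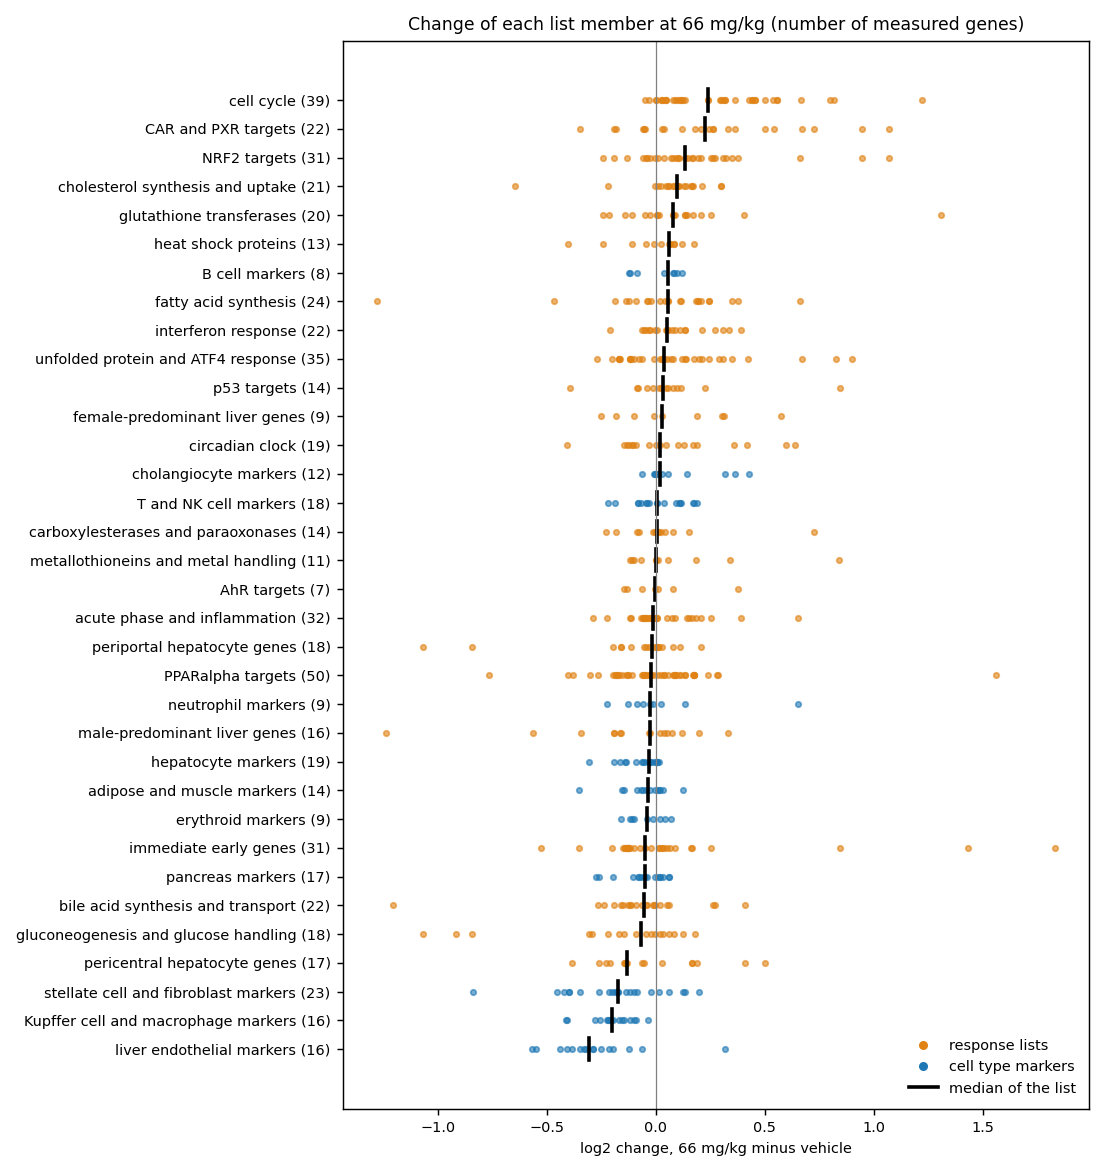
Change at 66 mg/kg against vehicle (horizontal axis, log2) of every measured member of 34 gene lists, 1 row per list with the number of genes in brackets, response lists in orange and cell type markers in blue, and a black bar for the median. Each gene is read from its brightest probe set. The medians run from -0.31 for liver endothelial markers to 0.24 for cell cycle genes, and over all probe sets of these 2 lists they are -0.25 and 0.12.

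Response groups with few members past the unadjusted mark were the AhR targets (0 of 7), heat shock proteins (0 of 13), acute phase and inflammation (0 of 32) and the interferon response (0 of 22). Of the 7 AhR targets, 4 were dim, with a mean level under the median of all probe sets. The unfolded protein and ATF4 response had 2 higher of 35, Ddit4, an inhibitor of mTOR signalling, at 0.90 and Psat1, of serine synthesis, at 0.83. That count was 6 without vehicle replicate 3, 3 without dosed replicate 1, 0 without dosed replicate 3, and 1 without vehicle replicate 1, vehicle replicate 5 or dosed replicate 2. The p53 targets had 1 higher (Gadd45a) and 1 lower (Phlda3, at -0.39) of 14. The metallothioneins and metal handling had 1 higher of 11, Mt2A, a zinc-binding protein, at 0.84. Male-predominant liver genes had 1 higher and 1 lower of 16, and female-predominant genes 1 higher of 9, Trim24, at 0.58. Pericentral genes had 1 higher and 1 lower of 17, with a median of -0.13, and periportal genes 0 higher and 2 lower of 18, Sds and Pck1. For 3 of the 17 pericentral genes every dosed rat lay below every vehicle rat, and for 1 above. Over all probe sets these shares were 1.91% and 2.68%. The circadian clock had 3 higher of 19, Per3 (0.60), Nr1d1 (0.64) and Nr1d2 (0.42), with a median of 0.02, and 0 were higher without dosed replicate 1. A second probe set of Per3 was at -0.006, and those of Nr1d2 were at 0.32 and -0.06. For lists with a count of 0 or 1 in a direction, that count stayed between 0 and 2 when 1 rat was left out.

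Most markers of the sinusoidal cells had estimates below vehicle. Of 16 measured liver endothelial markers, 1 was higher and 9 lower at an unadjusted p of 0.05, 0 were called, and the median was -0.31, against 1.54% lower and -0.001 over all probe sets. Gpr182, a chemokine-binding receptor of sinusoidal endothelium, read 9.20, 8.72 and 9.08 against 9.25 to 9.56, a difference of -0.44 ± 0.12 (SE; limma adjusted p 1). Stab2, a scavenger receptor, was at -0.55, and Fcgr2b, an immunoglobulin receptor, at -0.57. Vwf, the clotting factor carrier of larger vessels, was the 1 that was higher, at 0.32.

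The endothelial mean relative to vehicle was -0.02, -0.54 and -0.27 in the dosed rats and -0.14 to 0.16 in the vehicle rats. The first dosed rat thus lay among the vehicle rats, and the second was the lowest. Kupffer cell and macrophage markers gave 0 higher and 3 lower of 16, with a median of -0.20 and means of 0.01, -0.54 and -0.07 in the dosed rats. Stellate cell and fibroblast markers gave 0 higher and 5 lower of 23, with a median of -0.17 and means of -0.09, -0.30 and -0.15. In all 3 cell types the lowest rat was dosed replicate 2, which also had the highest 3' minus 5' difference. Without that rat the numbers lower were 1 of 16, 0 of 16 and 1 of 23, with medians of -0.15, -0.01 and -0.08. With all rats and the 3' minus 5' difference as a covariate the numbers lower were 9, 2 and 5, with medians of -0.30, -0.20 and -0.15. Vehicle rats moved them too: without vehicle replicate 1 the numbers lower were 5, 1 and 2, and without vehicle replicate 4 they were 7, 1 and 3. The stellate number was also 3 without vehicle replicate 2. The Kupffer number was 5 without vehicle replicate 5, 7 without dosed replicate 1 and 6 without dosed replicate 3.

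At an unadjusted p of 0.05, 0 of 9 neutrophil markers, 0 of 18 T and NK cell markers, 0 of 8 B cell markers and 0 of 9 erythroid markers differed in either direction, and 1 of 12 cholangiocyte markers was higher. Pancreas markers had 1 lower of 17 (Amy2a3, at -0.20 and a dim 3.84 in vehicle rats) and adipose and muscle markers 0 of 14. Many of these markers were dim, with a mean level under the median of all probe sets. That held for 7 of 9 neutrophil, 11 of 18 T and NK cell, 5 of 8 B cell and 4 of 9 erythroid markers. It also held for 14 of 17 pancreas and 10 of 14 adipose and muscle markers. Counts of 0 there do not show that these cells were unchanged. The part of cell makeup in the changes of Myc and Gsta3 was not tested.

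Doses above 66 mg/kg place the lowest dose in order. These comparisons with vehicle share the same 5 vehicle rats, so their values are given side by side only. Gsta3 was 1.31 above vehicle at 66 mg/kg, then 1.80, 2.09, 2.20 and 2.96 at 132, 263.6, 527.1 and 1054.2 mg/kg. Ces2c was 0.72 above, then 1.60, 2.42, 2.56 and 3.60. Cyp3a23-3a1 was 0.67 above, then 0.87, 1.20, 1.29 and 1.40, and Slc6a6 was at -1.03, then -1.28, -2.65, -3.18 and -3.86. For these 4 genes the mean at 66 mg/kg was the one closest to vehicle of the 5 doses.

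Myc had another order. It was 1.83 above vehicle at 66 mg/kg, then 0.64, 0.44, 0.68 and 1.94, with means of 7.86 ± 0.28, 7.66 ± 0.50 and 7.91 ± 0.12 (SD, n = 3 each) at the middle doses. The dosed groups at 132, 263.6 and 527.1 mg/kg did not pass against vehicle in limma (adjusted p 0.235, 0.496 and 0.177), and the group at 1054.2 mg/kg did (7.64e-05). Gadd45g was 1.43 above vehicle at 66 mg/kg and then at 0.13, 0.20, -0.07 and 0.77. Efna1 was at -0.56, then -0.01, 0.10, -0.06 and -0.30, and Pck1 at -0.84, then -0.56, 0.09, 0.23 and 0.34. For Gadd45g, Efna1 and Pck1 the group farthest from vehicle was 66 mg/kg. These genes and Myc were named for their values at 66 mg/kg, and that choice itself favours 66 mg/kg as the farthest group.

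**Figure D4:**
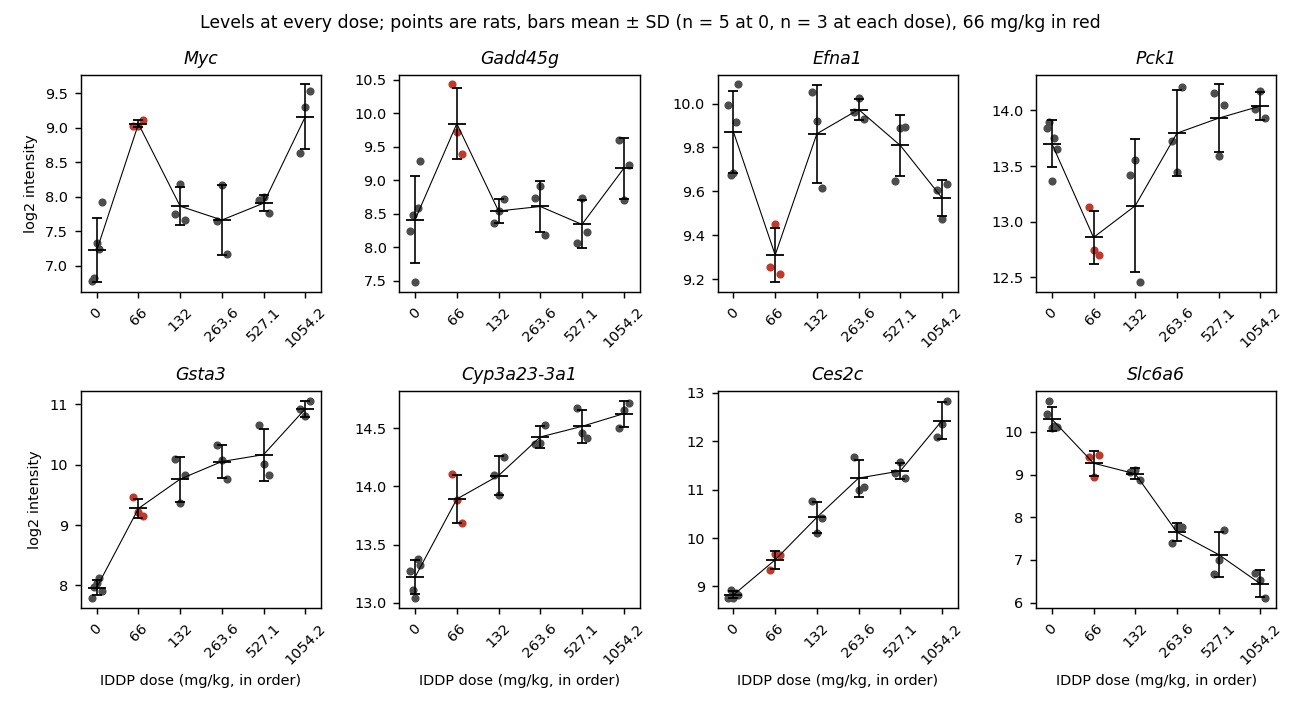
Log2 intensity (vertical axis) of 8 transcripts in every rat of the 6 dose groups (horizontal axis, mg/kg in order, not to scale), with means joined by a line, bars for mean ± SD and 66 mg/kg in red. Gsta3, Cyp3a23-3a1, Ces2c and Slc6a6 move away from vehicle with dose, while Myc and Gadd45g are higher at 66 mg/kg than at the 3 middle doses and Efna1 is lower.

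The next dose was compared with 66 mg/kg directly. Of 31042 probe sets, 0 (0%) passed for 132 against 66 mg/kg in limma, and 1204 (3.88%) were at an unadjusted p under 0.05. Myc was at -1.19 in that contrast (95% interval -1.75 to -0.63), Gadd45g at -1.31 (-2.02 to -0.60), Efna1 at 0.55 (0.29 to 0.81), Ces2c at 0.88 (0.48 to 1.28) and Gsta3 at 0.49 (0.08 to 0.89). The intervals are not adjusted for the number of probe sets, and the limma adjusted p was 0.991 for each of the 5. These 5 genes were named by rules that used the 66 mg/kg arrays, which this contrast shares. Replicate 2 at 132 mg/kg had a 3' minus 5' difference of 3.25, and without it 0 passed and 689 were at an unadjusted p under 0.05.

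Against the highest dose, 154 probe sets (0.496%) passed for 1054.2 against 66 mg/kg, 96 higher and 58 lower at 1054.2 mg/kg. Gsta3 was 1.65 higher there (limma adjusted p 0.000221), Ces2c 2.88 (8.62e-08), Abcc3 2.35 (0.000677), Cyp3a23-3a1 0.73 (0.00621), Ugt2b1 0.79 (0.00175) and Aldh1a1 0.86 (0.000581). These enzymes and pumps were thus below their highest measured level at 66 mg/kg. Myc was 0.10 higher at 1054.2 than at 66 mg/kg and did not pass (limma adjusted p 0.997), with 9.16 ± 0.47 against 9.06 ± 0.05 (SD, n = 3 each). Pck1 was 1.18 higher and Nr0b2 1.75 higher at 1054.2 than at 66 mg/kg (limma adjusted p 0.0209 and 0.0442). Both were named for their p-values at 66 mg/kg, whose arrays this contrast shares. The number that passed was 91 with only these 6 arrays in the fit, 2311 with array weights and 42 to 218 when 1 rat was left out.

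At 1054.2 mg/kg, 1024 probe sets (3.3%) passed against vehicle, and the genes with the largest changes among them were read at 66 mg/kg. Dbp, a clock output factor that was 3.44 above vehicle at 1054.2 mg/kg, was at 0.36 at 66 mg/kg with a 95% interval of -0.21 to 0.93. Npas2, a partner of the clock complex, was at -2.65 at the highest dose and -0.09 at the lowest (-0.68 to 0.49). Akr1b7, an aldose reductase relative, was at 2.23 and -0.19 (-0.69 to 0.31), Cdkn1a at -2.14 and 0.06, and Tubb2a, a tubulin, at -2.26 and -0.29 (-0.64 to 0.06). The intervals of these 5 genes at 66 mg/kg included 0 and lay within 1 unit of it. Those of Snx10, a sorting nexin, and Stac3 also included 0 and were broader, at -0.21 to 1.85 and -1.64 to 0.51. Gsta3, Ces2c, Abcc3, Slc6a6 and Scd, from the same 12 genes, had intervals at 66 mg/kg that did not include 0. In the contrast of 1054.2 with 66 mg/kg, Dbp (3.08), Npas2 (-2.55), Akr1b7 (2.42), Cdkn1a (-2.20) and Tubb2a (-1.96) passed with limma adjusted p-values of 2.22e-05, 0.000286, 0.000119, 0.000286 and 1.68e-05. These genes were chosen at 1054.2 mg/kg, whose arrays this contrast shares.

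**Figure D5:**
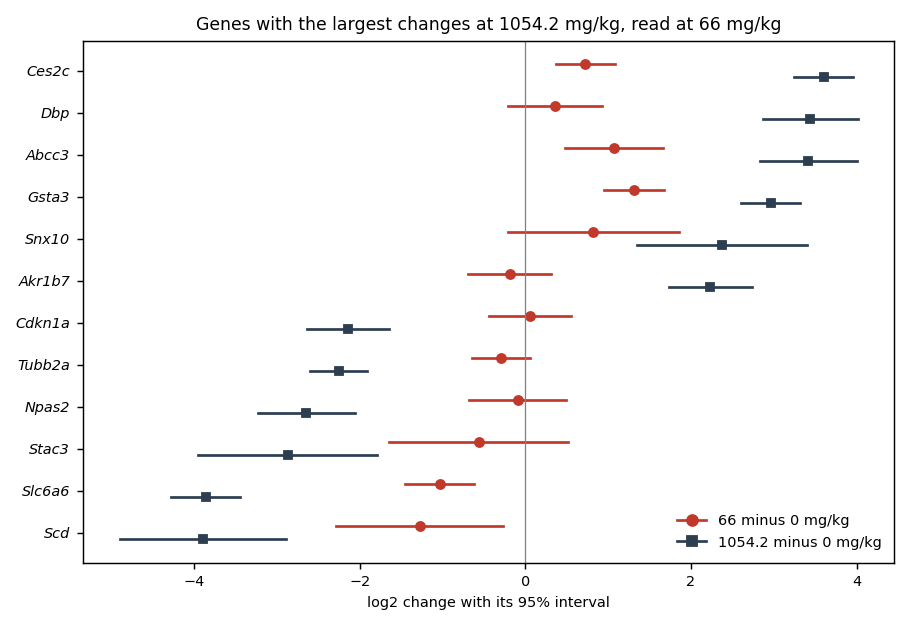
Change against vehicle (horizontal axis, log2) of the 12 genes with the largest changes at 1054.2 mg/kg, with 95% intervals as bars, at 66 mg/kg in red and at 1054.2 mg/kg in blue squares. At 66 mg/kg the intervals of Gsta3, Ces2c, Abcc3, Slc6a6 and Scd leave out 0 and the other 7 include it.

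Some large estimates belong to probe sets that name no single gene. Probe set 1371076_at, which carries several symbols, was 1.62 higher (unadjusted p 6.21e-05, limma adjusted p 0.276), and 1370725_a_at and 1386944_a_at, which also carry several, were at -1.68 and -1.27. Probe set 1368718_at, unnamed here, had the largest estimate of all, 3.44 (unadjusted p 0.0716).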

How the data were processed

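Liver RNA of 20 rats was read on Affymetrix rat arrays, 1 per rat. The authors deposited a log2 intensity for each probe set, made by RMA according to the submitters' processing notes. Its version, and which arrays it was run on together, is not given in the sources used here. Of 31099 probe sets, the 57 controls were left out. Among the others, 20826 carried 1 symbol, 436 several and 9780 are unnamed here, and 20758 were matched to RefSeq (GRCr8). Dose groups came from the sample labels.

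In limma, each of the 6 dose groups had its own mean in 1 fit to the 20 arrays (limma 3.58.1, R 4.3.3; 14 residual and 5.75 prior degrees of freedom), two-sided, with Benjamini-Hochberg adjustment over 31042 probe sets and a threshold of 0.05. Errors of changes are standard errors, intervals 95%, and the p-values measure spread between rats. The fit was tested on simulated data. The number of arrays limits the precision.

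The 34 lists (719 genes, 620 measured, each read from its brightest probe set), the members and the naming rule were chosen with earlier results of these data known. The rule named the probe sets that passed at 66 mg/kg, the 10 genes of smallest p in each direction with separate groups, the 3 (response lists) or 1 (cell type lists) of smallest p per list, the 6 largest in each direction at 1054.2 mg/kg, and the 5 largest in each direction past the threshold for 132 and 1054.2 against 66 mg/kg. Other list members, and probe sets named by identifier, were chosen after their values were seen. Alternatives changed the dim filter, the arrays fitted, the normalization, the variance model, array weights, probe sets per gene, the 3' to 5' covariate, the replicate block and the rats included.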

Additional observations from a re-analysis of the deposited data

Results flagged for a closer look

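Of 93 results tested for a vehicle rat set apart from the other 4, 6 were marked, and chance marks about 1 in 20. Chka read 11.105 in vehicle replicate 3, against 10.72 to 10.78 in the others. Replicate 5 read 10.874 for Angptl4, a secreted inhibitor of lipoprotein lipase, against 11.48 to 11.62, and 6.3663 for the mitotic kinase Aurka, against 5.98 to 6.06. Replicate 2 read 7.7246 for the clock repressor Nr1d1, against 6.39 to 6.67, and 9.1806 for its relative Nr1d2, against 8.14 to 8.40. The Nr1d1 estimate at 66 mg/kg was 0.64 with all vehicle rats, and leaving out 1 rat at a time gave 0.40 to 0.88. Mt1, a metallothionein, read 6.9426 in replicate 1, against 7.72 to 7.94.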

How the results depend on the processing

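The number of probe sets called for 66 mg/kg against vehicle was 2, and it was 11 (9 higher, 2 lower) with only these 8 arrays in the fit and 12 (7 higher, 5 lower) with array weights. It ranged from 0 (without 66 mg/kg replicate 1, when 724 were at an unadjusted p under 0.05) to 3 when 1 rat was left out, and was 2 or 3 under the other settings. Myc and Gsta3 were among those called in every setting but the one without 66 mg/kg replicate 1. For 132 against 66 mg/kg the number was 0, except 1 (lower) with only those groups fitted, and it stayed 0 whenever 1 rat was left out. For 1054.2 against 66 mg/kg it was 154, with 91 when only those groups were fitted, 2311 with array weights and 42 to 218 when 1 rat was left out. The causes were not tested. Leaving 132 mg/kg replicate 2 out of the shared spread, chosen after seeing the data, gave 3 and 175. The replicate block gave 2, 0 and 131 for the 3 contrasts and changed no call of a named gene; at an unadjusted p of 0.05 it left 1 gene higher in each of the circadian clock and unfolded protein lists. Same-numbered rats at 66 mg/kg and vehicle had correlations of their deviations of 0.114, 0.112 and -0.011. The highest among rats of unlike number was 0.084, so 0.114 and 0.112 were above every such pair. Whether same-numbered rats shared more than a number was not tested. Of 1639 alternative values for the 92 named probe sets, 1616 kept their side of the threshold and their sign where called, 2 lost it, 21 newly passed and 0 reversed. Of 306 list medians under alternatives, 31 moved by more than the SD of the list median among the 3 dosed rats. The difference in RNA quality ranged from -0.024 to 0.22 when 1 rat was left out and did not pass in any. The largest unadjusted limma p among the calls at 66 mg/kg was 2.7e-07. Why few probe sets passed there was not tested.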
